A study of Mus musculus with 2 samples.

Results

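R-spondins and the proteins that receive them on the cell surface are described here across the cells of MC38 tumours, for 9 genes of the 32285 in the deposited feature lists: the ligands Rspo1, Rspo2, Rspo3 and Rspo4, the LGR receptor genes Lgr4, Lgr5 and Lgr6, and Rnf43 and Znrf3, which encode ubiquitin ligases. They were chosen by symbol, and each symbol occurred once under its Ensembl identifier. MC38 is a mouse colon carcinoma line. Tumours of MC38 cells that overexpress RSPO3 (genotype MC38-RSPO3-OE, here RSPO3-OE) and of control MC38 cells (MC38-Ctrl, here Ctrl) were grown in C57BL/6 mice and profiled by droplet single-cell RNA sequencing, with 1 library per group. The overexpression construct, the number of mice behind a library, their age and sex, the tumour site and the time of growth are not stated in the labels. No difference between the libraries has a replicate check. Cells of 1 library are not replicates, no test was made, and every interval given is a 95% interval for counting error alone.

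R-spondins are secreted proteins that strengthen Wnt signalling without starting it. The ligases RNF43 and ZNRF3 remove Frizzled receptors from the cell surface, and an R-spondin that holds an LGR receptor and a ligase together clears the ligase, so that more Wnt receptor stays at the membrane. In the intestine LGR5 marks the stem cells of the crypt, and AXIN2, RNF43 and ZNRF3 are themselves known as Wnt targets that restrain the pathway.

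The RSPO3-OE library held 7314 barcodes with 155615189 unique molecular identifiers (UMIs) and the Ctrl library 7301 barcodes with 143881763. After filters 6993 and 6895 cells were kept, with medians of 18915 and 16627 UMIs, and 7 barcodes occurred in both libraries. Tumour cells were defined as cells with no UMI of Ptprc, the pan-leukocyte gene, and at least 1 UMI of Hmga2. They numbered 4229 in RSPO3-OE, with a median of 25376 UMIs, and 4323 in Ctrl, with 21437. Their median mitochondrial share was 2.85% and 3.94%. A tumour cell with at least 3 UMIs of Mki67 and Top2a together was called dividing, which held for 2223 and 2344 cells. Macrophages (at least 20 UMIs of C1qa, C1qb and C1qc) numbered 1214 and 1176, and T cells (at least 2 UMIs of Cd3d, Cd3e and Cd3g) 416 and 208. A cell could meet more than 1 rule: 25 RSPO3-OE and 7 Ctrl tumour cells also met the macrophage rule. Levels are given as CPM, the UMIs of a gene per 1000000 UMIs of its class.

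Against its markers the tumour class carried Hmga2, which the rule used, and Hmga1 at 124 against 153 CPM (RSPO3-OE against Ctrl). The epithelial markers were weak apart from Krt8, which stood at 538 CPM in RSPO3-OE but at 87.5 CPM in Ctrl. Epcam had 0 UMIs in both libraries, Krt19 0 and 1, and Krt18 was under 1 CPM. Fibroblast markers were present, at 2650 and 2154 CPM for 6 genes together, most of it Dcn. The 4 Y-linked genes used as host markers summed to 0.396 and 0.226 CPM in tumour cells, against 149 and 95.2 CPM in macrophages.

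All 9 genes were located in mm10 with the GENCODE vM21 annotation. Rspo3 (ENSMUSG00000019880) lies at chr10:29452416-29535867 on the minus strand, Rspo1 at chr4:124986430-125009099 and Rspo4 at chr2:151842927-151874668 on the plus strand, and Rspo2 at chr15:43020794-43170826 on the minus strand. Lgr4 (ENSMUSG00000050199) lies at chr2:109917647-110014257 on the plus strand, Lgr5 at chr10:115450311-115587780 and Lgr6 at chr1:134983301-135105276 on the minus strand. Rnf43 lies at chr11:87662722-87735539 on the plus strand and Znrf3 (ENSMUSG00000041961) at chr11:5276324-5444847 on the minus strand. RefSeq promoters (GRCm38.p6) were matched for 5 of the 9, namely Rspo1, Rspo4, Lgr4, Lgr6 and Rnf43. The 250 bases before the start are shown for Lgr4 and Lgr6, the 2 LGR genes read in tumour cells of both libraries, at chr2:109917397-109917646 on the plus strand and chr1:135105277-135105526 on the minus strand.
Lgr4: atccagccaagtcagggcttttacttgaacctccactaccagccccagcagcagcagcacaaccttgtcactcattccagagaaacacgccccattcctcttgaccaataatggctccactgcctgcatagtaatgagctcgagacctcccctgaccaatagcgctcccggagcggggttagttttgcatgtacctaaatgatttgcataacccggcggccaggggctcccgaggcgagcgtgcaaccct
Lgr6: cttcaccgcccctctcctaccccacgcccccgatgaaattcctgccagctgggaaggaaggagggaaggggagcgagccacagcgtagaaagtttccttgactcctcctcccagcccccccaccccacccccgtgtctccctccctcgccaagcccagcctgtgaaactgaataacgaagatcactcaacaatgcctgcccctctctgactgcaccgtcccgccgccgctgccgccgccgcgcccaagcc
Both strands of these windows were searched for CTTTGAT and CTTTGAA, forms of the motif bound by TCF and LEF factors, which share 6 bases. No match was found in the windows of the 5 genes, so no letters stand in capitals. Of 32851 promoters in the same table, 7.48% hold a match in a window of this length. The GC content is 55.6% for Lgr4 and 65.2% for Lgr6.

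Rspo3 was the one R-spondin read in tumour cells, and it was read in RSPO3-OE alone. The RSPO3-OE tumour cells gave 12392 Rspo3 UMIs, or 106.8 CPM (104.9 to 108.7, exact Poisson interval). The Ctrl tumour cells gave 0, where a floor of 3 counts is 0.0283 CPM, and the RSPO3-OE level was 3780-fold that floor. The exact interval of the ratio begins at 3073-fold. The counts do not tell RNA of the construct from RNA of the mouse gene, and construct RNA whose 3′ end lies outside the annotated gene would not be counted. Over all Ctrl barcodes Rspo3 had 2 UMIs, 1 each in 2 Ptprc-negative cells with Y-linked RNA that also carried Col1a1, Dcn and Pdgfra, genes of fibroblasts. Rspo1, Rspo2 and Rspo4 had 0 UMIs in the tumour cells of both libraries, where the same floor is 0.0259 CPM (RSPO3-OE) and 0.0283 CPM (Ctrl).

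Rspo3 was unevenly spread among the RSPO3-OE tumour cells. Rspo3 was found in 934 of the 4229 cells, or 22.1% (Clopper-Pearson interval 20.8 to 23.4). At 2000 UMIs per cell, drawn at random from each cell and with 2 shallower cells left out, it was found in 9.06%. Of the 4323 Ctrl tumour cells 0 held it, which by the same floor of 3 counts allows a share of cells with a UMI of up to 0.0694%. Cells with 0 UMIs numbered 3295, cells with 1 UMI 231, cells with 2 to 9 UMIs 355, cells with 10 to 99 UMIs 341 and cells with 100 or more UMIs 7. The 341 cells held 77.6% of the UMIs and the 7 cells 7.28%, and the highest cell had 179. The top 10% of tumour cells held 89.7% of all Rspo3 UMIs. The variance of the count per cell was 39.3 times its mean, against 8.50 for Hmga2, 1.09 for Lgr4 and 1.07 for Znrf3 in the same cells.

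**Figure D1:**
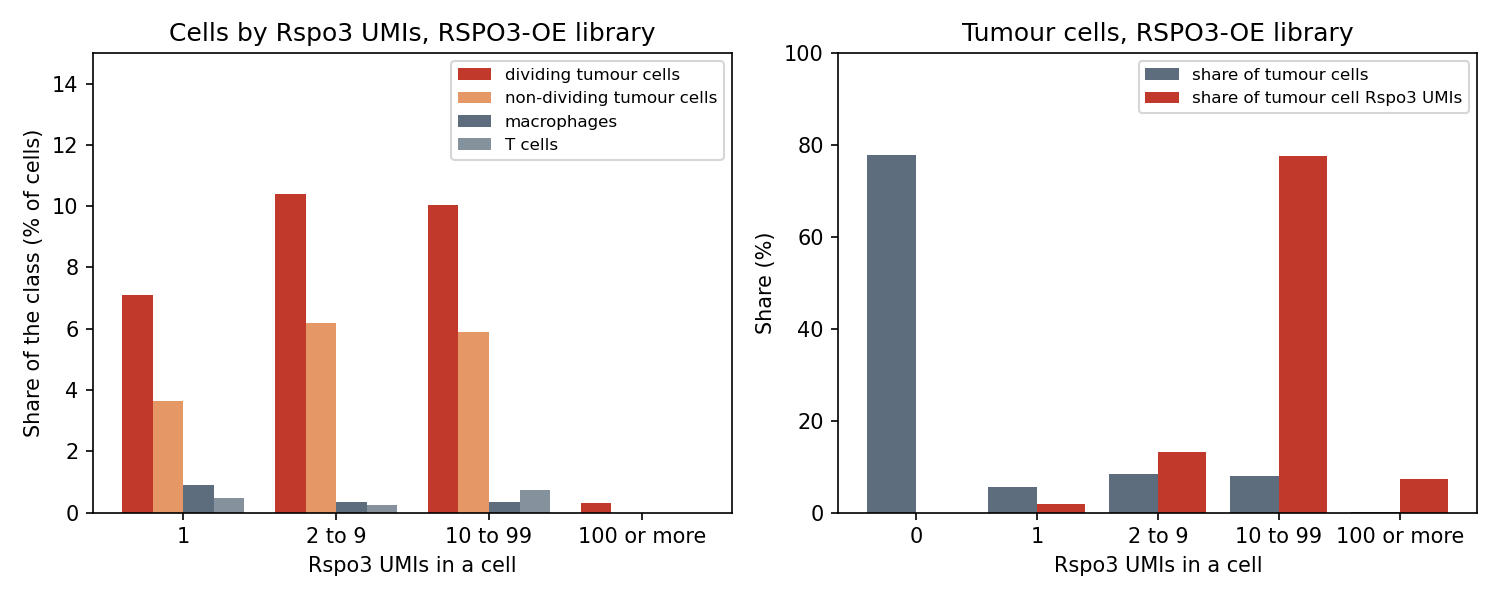
Left, the share of cells of each RSPO3-OE class (y axis, %) with 1, 2 to 9, 10 to 99 and 100 or more Rspo3 UMIs (x axis). Right, the share of RSPO3-OE tumour cells (grey) and of their Rspo3 UMIs (red) by the same counts with 0 added. Cells with 10 to 99 UMIs are 8.06% of tumour cells and hold 77.6% of the UMIs.

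Dividing tumour cells held somewhat more Rspo3 than the others. The level was 114.2 CPM (111.8 to 116.6) in dividing and 92.8 CPM (89.8 to 95.8) in non-dividing RSPO3-OE tumour cells, a log2 ratio of 0.30 (0.24 to 0.35). In that comparison 14.7% of 14278 genes were at least 1.5-fold higher in dividing cells and 14% at least 1.5-fold lower. With at least 5 UMIs of Mki67 and Top2a required for a dividing cell, the ratio was 0.11. The intervals of Rspo3 levels and ratios treat UMIs as independent. The uneven spread of Rspo3 among cells is not in them, so they are too narrow. The share with an Rspo3 UMI was 27.8% in dividing cells, at a median of 32491 UMIs, and 15.7% in non-dividing cells, at 18914 UMIs. Thinned to 2000 UMIs, the shares were 10.4% and 7.58%. All 7 cells with 100 or more Rspo3 UMIs were dividing cells.

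Immune cells of the RSPO3-OE library held far less Rspo3, and most of it lay in cells that also carried Hmga2. Macrophages held 103 UMIs, or 6.71 CPM (5.48 to 8.14), in 19 of 1214 cells (1.57%, 0.945 to 2.43), and 5 cells held 75.7% of them. The median depth of macrophages was 11921 UMIs. Of the 19 cells 11 had an Hmga2 UMI. In the 1124 macrophages without one, Rspo3 was at 0.585 CPM (0.253 to 1.15), from 8 UMIs in 8 cells. T cells held 53 UMIs in 6 of 416 cells, or 14.7 CPM (11.0 to 19.2), and in the 395 T cells without an Hmga2 UMI 2 UMIs were left, or 0.631 CPM (0.0764 to 2.28). Thinned to 2000 UMIs, 0.498% of macrophages and 1.22% of T cells held Rspo3. The ratio of Rspo3 to 100 Hmga2 UMIs was 30.4 in tumour cells, 42.9 in macrophages and 52.5 in T cells. Ctrl macrophages and T cells had 0 Rspo3 UMIs.

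Outside tumour cells the other R-spondins were close to the limit of detection. Rspo1 had 9 UMIs in 9 Ctrl macrophages, or 0.563 CPM (0.257 to 1.07), and 1 UMI in RSPO3-OE macrophages, or 0.0652 CPM (0.00165 to 0.363). The 9 Ctrl cells all carried Ptprc and none carried Hmga2 or Col1a1. Dcn was read in 2 of them, and Pecam1 and Cd3e in 1 each. The log2 ratio of Rspo1 was -3.11 (-8.57 to -0.26), RSPO3-OE over Ctrl, and rests on that single UMI in RSPO3-OE. Without cells of a second class its interval reached above 0. In macrophages 7.79% of 12845 genes were at least 1.5-fold lower in RSPO3-OE and 13.3% at least 1.5-fold higher. Rspo2 and Rspo4 had 0 UMIs in all kept cells of both libraries.

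Of the receptors, Lgr4, the most widely expressed of the 3 LGR genes in the body, was read in tumour cells of both libraries and was somewhat higher in RSPO3-OE. It gave 683 UMIs, or 5.89 CPM (5.45 to 6.35), in RSPO3-OE and 486 UMIs, or 4.58 CPM (4.18 to 5.00), in Ctrl. The intervals do not overlap, and the log2 ratio was 0.36 (0.19 to 0.53, exact binomial interval), a 1.29-fold difference that stays under 1.5-fold. Over the 15214 genes with at least 10 UMIs in tumour cells the median log2 ratio was -0.09, 13.6% were at least 1.5-fold higher in RSPO3-OE and 17% at least 1.5-fold lower. Lgr4 was higher in both states, with 5.68 against 4.54 CPM in dividing cells (log2 0.32, 0.11 to 0.53) and 6.29 against 4.65 CPM in non-dividing cells (0.44, 0.14 to 0.73). The share of tumour cells with an Lgr4 UMI was 14.4% in RSPO3-OE and 10.1% in Ctrl, but 1.09% and 0.949% at 2000 UMIs per cell. Depth, mitochondrial share and Krt8 also differed between these tumour cells, by the values given above, and their part in the result was not tested. In macrophages Lgr4 had 5 UMIs in each library, or 0.326 and 0.313 CPM, and in T cells 1 and 2. Lgr4 thus stood lower in macrophages than in tumour cells of the same library beyond counting error.

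Lgr6 and Lgr5 were rare. Lgr6 gave 54 UMIs, or 0.465 CPM (0.350 to 0.607), in RSPO3-OE tumour cells and 67 UMIs, or 0.631 CPM (0.489 to 0.801), in Ctrl, with overlapping intervals and a log2 ratio of -0.44 (-0.98 to 0.10). Lgr6 had 0 UMIs in the macrophages and T cells of both libraries. Lgr5 had 0 UMIs in RSPO3-OE tumour cells and 3 in Ctrl, 1 in each of 3 cells. Its 1 other UMI among kept cells lay in an RSPO3-OE cell with Y-linked RNA and Col1a1, Dcn and Pdgfra.

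Of the ligases Znrf3 and Rnf43, which carry the same function, Rnf43 was lower in RSPO3-OE tumour cells and Znrf3 did not differ beyond counting error. Znrf3 gave 750 UMIs, or 6.46 CPM (6.01 to 6.94), in RSPO3-OE tumour cells and 739 UMIs, or 6.96 CPM (6.47 to 7.48), in Ctrl. These intervals overlap, and the log2 ratio was -0.11 (-0.26 to 0.04). Rnf43 gave 54 UMIs, or 0.465 CPM (0.350 to 0.607), against 89 UMIs, or 0.838 CPM (0.673 to 1.03). Its intervals do not overlap, and the log2 ratio was -0.85 (-1.36 to -0.35). Rnf43 was lower in RSPO3-OE in both states, at -0.69 (-1.31 to -0.09) in dividing and -1.19 (-2.20 to -0.25) in non-dividing tumour cells. It was the one of the 9 genes that stood at least 1.5-fold lower in RSPO3-OE tumour cells, a size that 17% of all tested genes reached. At 2000 UMIs per cell Rnf43 had 1 UMI in RSPO3-OE and 8 in Ctrl, a log2 ratio of -2.97 (-8.44 to -0.07).

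Among other cells Znrf3 was read in RSPO3-OE macrophages at 3.52 CPM (2.64 to 4.59) and in Ctrl macrophages at 3.38 CPM (2.54 to 4.41), 54 UMIs each, and no difference was detectable at this depth. Both lay under the tumour cells. Thinned to 2000 UMIs per cell, the Znrf3 log2 ratio in macrophages was 1.83 (-0.09 to 4.31). In T cells Znrf3 gave 14 UMIs, or 3.87 CPM (2.12 to 6.50), in RSPO3-OE and 18 UMIs, or 8.73 CPM (5.17 to 13.8), in Ctrl. The log2 ratio was -1.17 (-2.29 to -0.08), while the 2 levels' own intervals overlap. The interval of the Znrf3 ratio reached above 0 with up to 10% mitochondrial UMIs (-1.09, -2.22 to 0.02), without cells of a second class (-1.05, -2.18 to 0.06) and with every cell thinned (-1.26, -3.31 to 0.71), and the mean of per-cell CPM gave -0.51. In T cells 16.6% of 11186 genes were at least 1.5-fold lower in RSPO3-OE and 10.1% at least 1.5-fold higher. The 3 tumour markers Hmga2, Hmga1 and Krt8, none of them at 0, summed to 107 CPM in RSPO3-OE T cells and 219 CPM in Ctrl T cells, and their part in this difference was not tested. In T cells without an Hmga2 UMI Znrf3 stood at 4.10 and 10.1 CPM. Rnf43 gave 10 UMIs in 10 RSPO3-OE T cells, or 2.77 CPM (1.33 to 5.09), and 4 UMIs in 4 Ctrl T cells, or 1.94 CPM (0.528 to 4.97). None of these 14 cells had an Hmga2 UMI. The Rnf43 log2 ratio was 0.51 (-1.28 to 2.64), and it turned to -0.52 with the mean of per-cell CPM. In RSPO3-OE the Rnf43 level of T cells thus lay above that of tumour cells, with intervals that do not overlap. Rnf43 had 3 UMIs in RSPO3-OE and 0 in Ctrl macrophages.

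**Figure D2:**
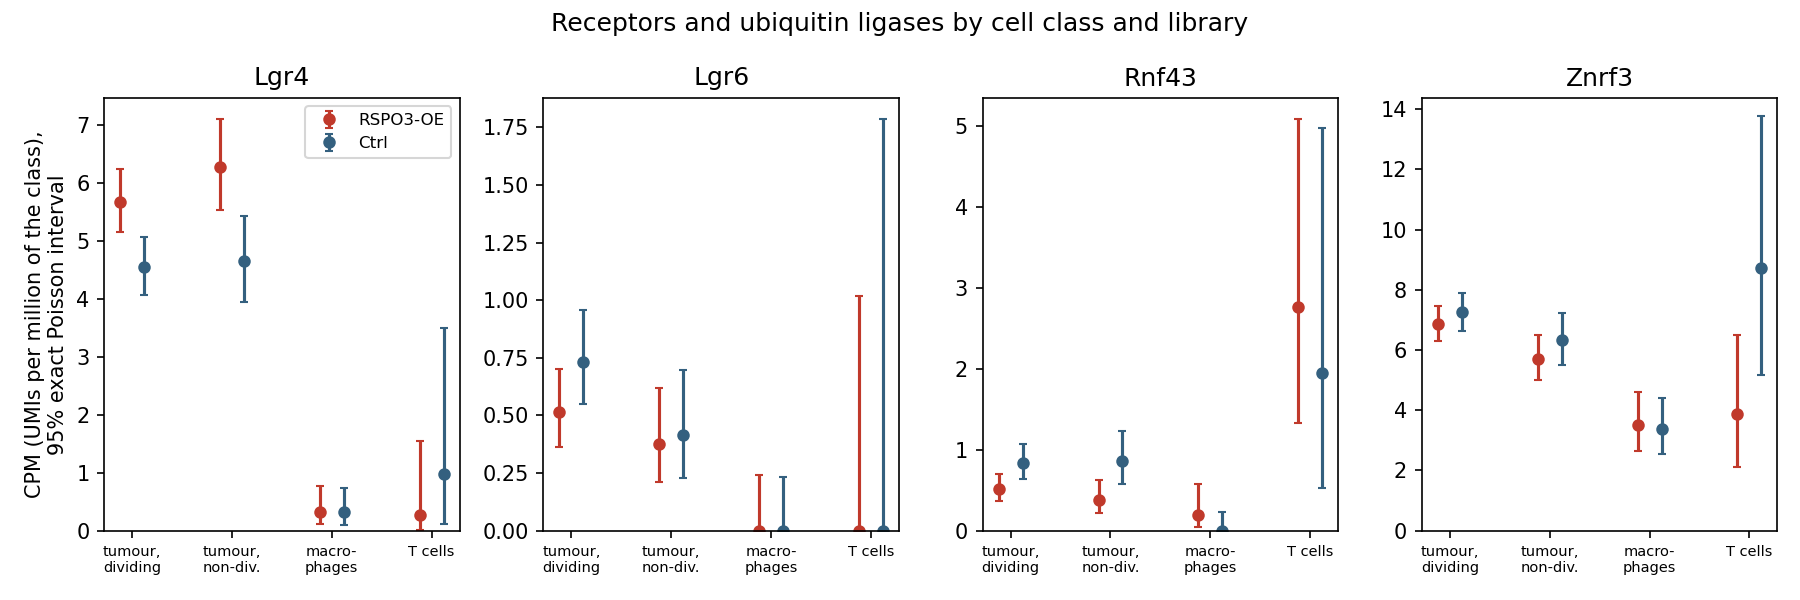
Levels (y axes, CPM from 0, each panel with its own scale) of Lgr4, Lgr6, Rnf43 and Znrf3 in 4 cell classes (x axes) of RSPO3-OE (red) and Ctrl (blue), with 95% exact Poisson intervals. Lgr4 is higher in RSPO3-OE in both tumour states and under 1 CPM in macrophages and T cells, and Rnf43 is lower in both tumour states.

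Dividing state made little difference to the receptors and ligases. For Znrf3 dividing cells were higher, at 6.86 against 5.71 CPM in RSPO3-OE (log2 0.26, 0.04 to 0.50), and in Ctrl at 7.25 against 6.34 CPM (0.19, -0.04 to 0.43). The Lgr4 ratio of dividing over non-dividing cells was -0.15 (-0.37 to 0.08) for RSPO3-OE, and for Ctrl it was -0.03 (-0.31 to 0.25). None of the 4 genes reached 1.5-fold in RSPO3-OE, and in Ctrl Lgr6 did, at 0.82 (-0.05 to 1.78), in a comparison where 14.4% of 14025 genes were at least 1.5-fold higher in dividing cells. With at least 5 UMIs of Mki67 and Top2a the Ctrl Lgr6 ratio was 0.54, under 1.5-fold.

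Within single tumour cells, receptor and ligase were seldom read together at this depth. A UMI of any LGR gene was found in 15.4% of RSPO3-OE and 11.5% of Ctrl tumour cells, and a UMI of either ligase in 16.7% and 16.3%. Both kinds were found in 156 of 4229 RSPO3-OE cells, or 3.69% (3.14 to 4.30), and 112 of 4323 Ctrl cells, or 2.59% (2.14 to 3.11). Neither was found in 71.6% and 74.8%. These shares count cells with a UMI and do not show how many cells express the genes. RSPO3-OE tumour cells were also the deeper ones.

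Tumour cells of the RSPO3-OE library were then compared by their own Rspo3 count, in 3295 cells with 0 UMIs, 586 cells with 1 to 9 and 348 cells with 10 or more, at medians of 24467, 28015 and 28748 UMIs. These ranges come from a per-cell count, are no cell types, and fix Rspo3 itself. Lgr4 stood at 5.98, 5.44 and 5.87 CPM over the 3 ranges, and the cells with 10 or more were at 0.981 times those with 0 (0.744 to 1.27). Znrf3 stood at 6.21, 7.51 and 6.78 CPM (1.09 times, 0.845 to 1.39). Neither gene differed beyond counting error between these ranges. Rnf43 had 40, 7 and 7 UMIs (1.40 times, 0.529 to 3.16). Lgr6 stood at 0.424, 0.336 and 1.01 CPM (2.38 times, 1.09 to 4.76), from 11 UMIs in 8 cells of the highest range. Its interval reached below 1 among dividing cells (1.42 times, 0.480 to 3.51) and among cells without an Mgp UMI (2.19 times, 0.902 to 4.82). It did so too between cells with and without an Rspo3 UMI at 2000 UMIs per cell (1.92 times, 0.827 to 3.99). Only Rspo3 was thinned there, and Lgr6 was counted in full. Among non-dividing cells the Lgr6 ratio was 6.73 times (1.81 to 21.6), from 5 and 10 UMIs.

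The feedback genes Axin2, Apcdd1 and Lef1 of the Wnt pathway were higher in cells where Rspo3 was higher. Axin2, a scaffold of the complex that degrades beta-catenin and a standard readout of Wnt signalling, stood at 0.917 CPM in cells with no Rspo3 UMI, 1.34 in cells with 1 to 9 and 3.02 in cells with 10 or more. The highest range was 3.30 times the lowest (2.13 to 5.01). Ctrl tumour cells stood at 0.895 CPM, so the RSPO3-OE cells with no Rspo3 UMI lay at the Ctrl level (log2 0.03, -0.41 to 0.48) and those with 10 or more above it (1.76, 1.14 to 2.34). Apcdd1, a membrane inhibitor of Wnt receptors, stood at 3.13, 3.92 and 8.34 CPM (2.67 times, 2.08 to 3.39), against 2.97 CPM in Ctrl. Lef1, a transcription factor that acts with beta-catenin, stood at 1.35, 2.02 and 2.57 CPM (1.90 times, 1.21 to 2.89), but all 3 ranges lay under the Ctrl level of 4.48 CPM. Tcf7, a factor of the same family, stood at 5.66, 5.60 and 6.60 CPM (1.17 times), all above the Ctrl level of 2.83 CPM. The 2 factors thus differed from Ctrl in opposite directions already in cells with no Rspo3 UMI, at a log2 ratio of -1.73 for Lef1, while Tcf7 was at 5.66 against 2.83 CPM.

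In a finer split, Axin2 and Apcdd1 were highest in the 126 cells with 30 or more Rspo3 UMIs. Axin2 stood at 0.694 CPM in cells with 1 UMI, 1.79 in cells with 2 to 9, 1.74 in cells with 10 to 29 and 5.21 (3.22 to 7.96) in cells with 30 or more, from 21 UMIs in 16 cells. The interval of the 10 to 29 range (0.901 to 3.05) overlaps that of cells with no Rspo3 UMI (0.727 to 1.14), so the Axin2 difference was largest in, and rests mainly on, the 126 cells. Apcdd1 stood at 3.47, 4.23, 4.80 and 14.4 CPM (10.9 to 18.6), the last from 58 UMIs in 29 cells. Of the 12 Wnt feedback genes 5 had the 10 UMIs needed for a ratio, and 4 of them were at least 1.5-fold higher in cells with 10 or more Rspo3 UMIs than in those with 0, with 0 lower. They were Axin2, Apcdd1, Lef1 and Notum, the last from 3 and 8 UMIs. The median log2 ratio of the 5 was 1.41, against -0.01 over 13813 genes. Of those genes 7.16% were at least 1.5-fold higher and 7.58% at least 1.5-fold lower. Znrf3 and Rnf43, also known as Wnt targets, are not in the list of 12. They stood at 1.09 times (0.845 to 1.39) and 1.40 times (0.529 to 3.16), with intervals that include 1.

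The Axin2 ratio kept its size within parts of the class. The cells with 10 or more Rspo3 UMIs were at 3.52 times (1.99 to 6.06) those with 0 among dividing cells, 3.70 times (1.71 to 7.35) among non-dividing cells and 3.01 times (1.86 to 4.75) among cells without a UMI of Mgp. Mgp, a matrix protein that limits calcification, stood at 586, 211 and 93.4 CPM over the 3 ranges and so differed strongly with Rspo3. All 3 ranges lay above the Ctrl level of 64.8 CPM. Cells with an Rspo3 UMI left at 2000 UMIs per cell were at 3.05 times the rest. The interval of this ratio lay above 1 and reached 4.55. Only Rspo3 was thinned there and Axin2 was counted in full, so depth was not made equal for Axin2. Axin2 was found in 46 of 934 cells with an Rspo3 UMI, or 4.93% (3.63 to 6.51), and in 61 of 3295 cells without one, or 1.85% (1.42 to 2.37). For Lgr4 the same shares were 14.9% and 14.3%. The median depth was 28275 UMIs in cells with an Rspo3 UMI and 24467 in those without. The Lef1 ratio lay above 1 in the same 3 parts, at 1.68, 2.48 and 1.65 times, but each interval reached below 1.

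**Figure D3:**
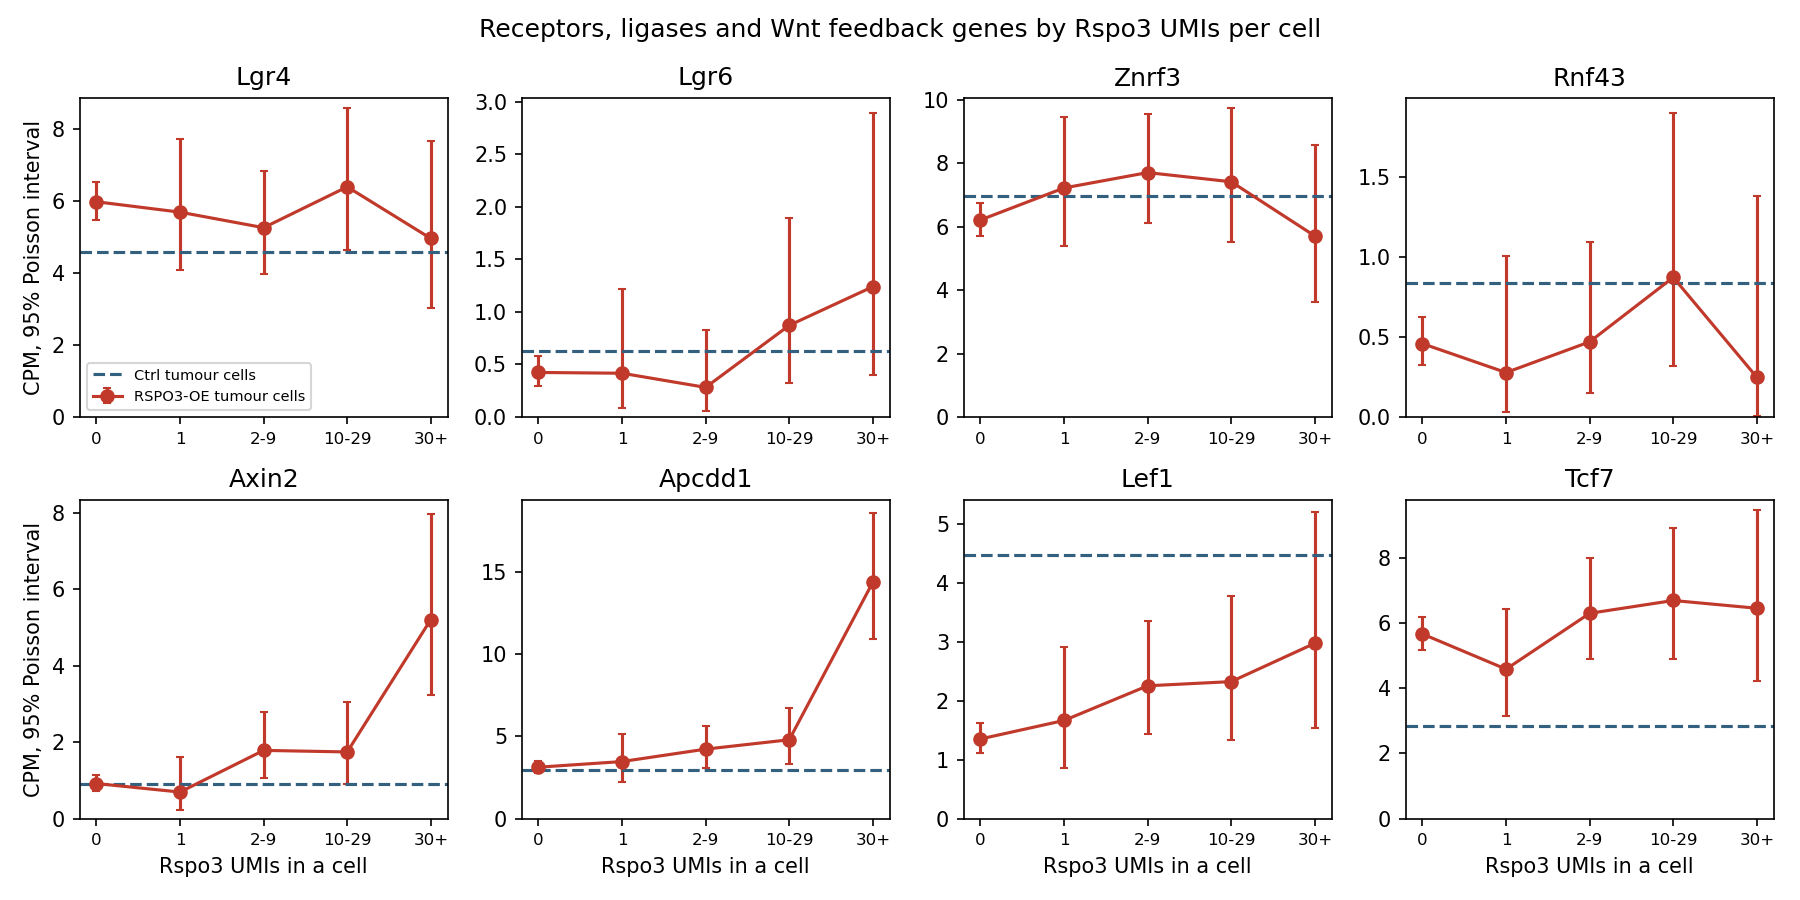
Levels (y axes, CPM from 0, own scale per panel) of 8 genes in RSPO3-OE tumour cells by the Rspo3 UMIs of the cell (x axes), with 95% exact Poisson intervals, and in all Ctrl tumour cells (dashed blue line). Lgr4 and Znrf3 do not differ between ranges beyond their intervals, Axin2 reaches 5.21 CPM and Apcdd1 14.4 CPM in cells with 30 or more Rspo3 UMIs, and Lef1 lies under and Tcf7 above the Ctrl line in each range.

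Some other genes of the pathway also differed by Rspo3 range. Dkk3, a secreted protein of the Dickkopf family, stood at 5.51, 7.96 and 16.7 CPM (3.03 times, 2.54 to 3.60). The ligand Wnt5a stood at 19.5, 21.5 and 31.7 CPM (1.63 times, 1.45 to 1.83), against 25.3 CPM in Ctrl. The transcription factor Sox4 stood at 50.3, 57.2 and 77.2 CPM (1.53 times, 1.42 to 1.65), all under the Ctrl level of 125.4 CPM. Dkk2, another Dickkopf protein, went the other way, at 0.693 times (0.648 to 0.741). Dkk3, Wnt5a and Sox4 here were named after their values had been seen. The UMIs of Dkk3 and Sox4 were concentrated in some cells too, so their intervals here are too narrow. Among the 3295 cells with no Rspo3 UMI, Dkk3 had 481 UMIs in 246 cells and Sox4 4392 UMIs in 1505 cells.

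Between the libraries as a whole, the Wnt feedback genes had no common direction in tumour cells. Of the 5 measured, Tcf7 was at least 1.5-fold higher in RSPO3-OE, with a log2 ratio of 1.02 (0.82 to 1.22), and Lef1 and Notum at least 1.5-fold lower, at -1.52 (-1.77 to -1.27) and -0.75 (-1.88 to 0.33). Axin2 stood at 1.18 against 0.895 CPM (log2 0.40, 0.01 to 0.79) and Apcdd1 at 3.74 against 2.97 CPM (0.33, 0.12 to 0.55). The median was 0.33, beside -0.09 over all genes tested. Of 15 wider Wnt targets 14 were measured, 4 were at least 1.5-fold higher and 2 lower, with a median of 0.29, beside 13.6% and 17% of all tested genes. Id2, an inhibitor of helix-loop-helix factors, stood at 1.09 and the adhesion receptor Cd44 at 0.63, while the receptor kinase Met stood at -0.74 and Sox4 at -1.22.

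Wnt receptors and ligands varied gene by gene. Of 12 Frizzled and LRP genes 10 were measured, with a median log2 ratio of 0.01, 1 at least 1.5-fold higher and 1 lower, where 13.6% and 17% of all tested genes were. Fzd5 stood at 0.48 and Fzd8 at 0.37, and Fzd1 at -0.32 and the co-receptor Lrp5 at -0.43. The 2 past 1.5-fold were Fzd3, with 28 against 2 UMIs, and Fzd4, with 11 against 27. Of 21 genes for Wnt ligands and their secretion 12 were measured, 2 were higher and 3 lower by that fold, against the same 13.6% and 17%, and the median was -0.15. Wnt11 stood at 1.43 (0.86 to 2.03) and Wnt10b at 0.48, and Wnt5b at -1.26 and Wnt10a at -1.34 (-1.44 to -1.24). Wnt10a stood at 9.69 CPM in RSPO3-OE tumour cells, against 24.5 CPM in Ctrl. The 3 Dishevelled genes, which relay the Frizzled signal, had a median of -0.29 and 0 past 1.5-fold, with Dvl2 at -0.19, Dvl1 at -0.29 and Dvl3 at -0.31.

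Secreted Wnt inhibitors were mostly too rare to compare, with 5 of 11 measured, 2 at least 1.5-fold higher and 3 lower (13.6% and 17% over all tested genes). Their median log2 ratio was -0.75. The 3 lower ones, Notum, Frzb and Sfrp2, had at most 20 UMIs in a library. The 2 higher ones were Dkk3, at 6.94 against 1.88 CPM (log2 1.88, 1.66 to 2.11), and Dkk2, at 118 against 61.9 CPM (0.94, 0.89 to 0.98). Heparan sulfate proteoglycans, which can hold R-spondins and Wnts at the cell surface, had 7 of 10 measured, 2 higher and 1 lower, with a median of 0.04, beside the same shares. The syndecan Sdc2 stood at 206 against 88.6 CPM (1.22, 1.18 to 1.25) and Sdc3 at 1.01, the glypicans Gpc1 at -0.12 and Gpc3 at -1.47. Sdc4, a syndecan that binds RSPO3, stood at 261 against 243 CPM, a log2 ratio of 0.10.

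R-spondins can also bind BMP receptor 1A and so lower BMP signalling, and genes of that pathway were included. Of 5 genes all were measured, 3 were at least 1.5-fold higher in RSPO3-OE tumour cells and 0 lower, and the median log2 ratio was 1.09. Over all tested genes 13.6% were higher and 17% lower by that fold. Id3, a standard BMP target, gave 11486 against 4656 UMIs (1.17, 1.13 to 1.22), Id1 at 1.43 from 56 and 19 UMIs and Id2 at 1.09. The receptor Bmpr1a stood at -0.08 and the inhibitor Smad6 at -0.24. Within RSPO3-OE, Id3 was lower in cells with 10 or more Rspo3 UMIs than in cells with 0, at 0.718 times (0.668 to 0.771). The Id3 ratio was 0.882 among dividing and 0.850 among non-dividing cells, and it turned to 1.11 times (1.02 to 1.21) among cells without an Mgp UMI. Of the other ligands of LGR4, Ndp had 0 UMIs in tumour cells of both libraries, and Tnfsf11, the gene of RANKL, had 4 UMIs in RSPO3-OE and 0 in Ctrl tumour cells. In T cells Tnfsf11 gave 153 UMIs, or 42.3 CPM, in RSPO3-OE and 13 UMIs, or 6.30 CPM, in Ctrl, a log2 ratio of 2.75 (1.93 to 3.69). Cd4 was read in 11.1% of RSPO3-OE and 3.85% of Ctrl T cells, and Cd8a in 81.7% and 87.5%. The part of these differences in the Tnfsf11 ratio was not tested, and no alternative was run for that ratio.

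**Figure D4:**
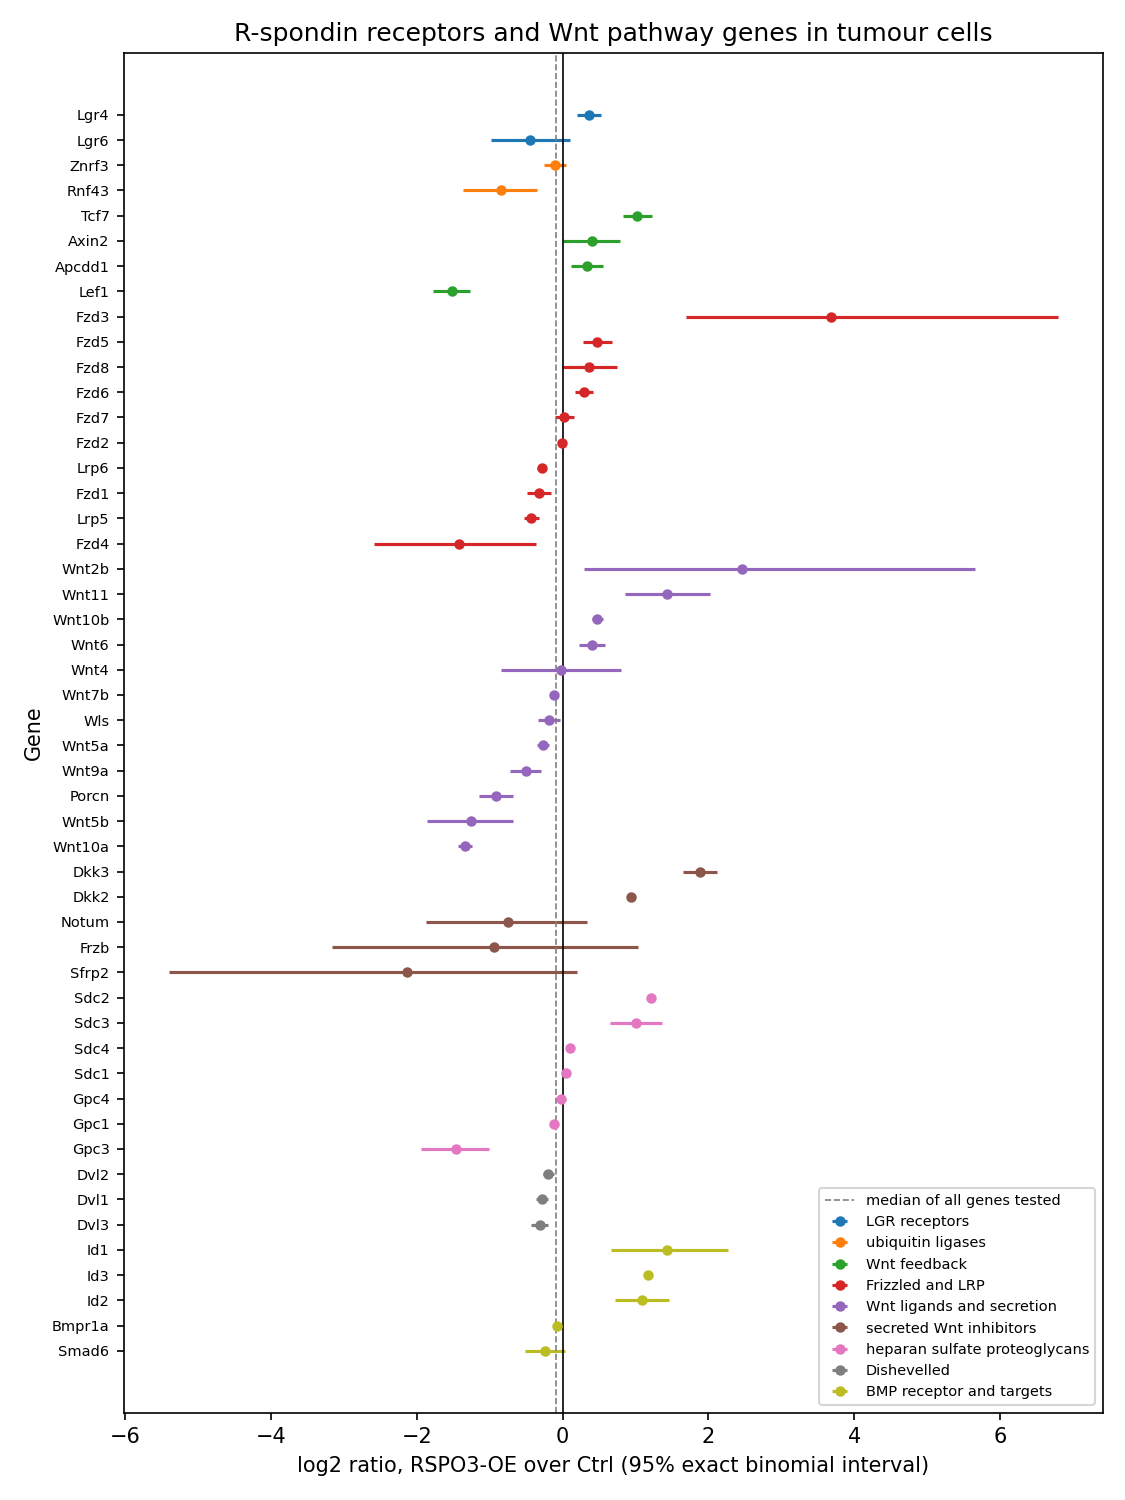
Log2 ratio of RSPO3-OE over Ctrl in tumour cells (x axis) for each measured gene of the pathway lists except the wider Wnt targets (y axis, coloured by list) with 95% exact binomial intervals, Rspo3 left out. The dashed line is the median of all genes tested, -0.09. Lgr4 lies at 0.36, Znrf3 at -0.11 and Rnf43 at -0.85, and Tcf7 and Lef1 lie on opposite sides.

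Across single RSPO3-OE tumour cells no gene followed Rspo3 closely. Among 9397 genes read in at least 10% of the 4229 cells, the highest Pearson correlations of log-scaled counts were those of Gpnmb (0.151), Rpl13a (0.150), Rps3 (0.138), Mif (0.137) and Rpl36a (0.136), and Lgr4 and Znrf3 were at -0.01 and 0.00013. The lowest were those of Crip1 (-0.196), Ly6c1 (-0.196) and S100a6 (-0.169), farther from 0 than the highest. The cells share 1 library and differ in depth, and correlations this weak in sparse counts are given as a description. Gpnmb stood at 9.36, 13.6 and 25.6 CPM over the 3 Rspo3 ranges. All of these lay under its 30.7 and 40.1 CPM in dividing and non-dividing Ctrl tumour cells. Over 8 profiles, the 4 cell classes of each library, the genes most like Rspo3 among 10057 were Akr1c12 (0.986), Rpl39l (0.982) and Has1 (0.963). Rpl39l stood at 47.2 CPM in dividing and 41.4 CPM in non-dividing tumour cells of RSPO3-OE, with 1 and 6 UMIs in the same classes of Ctrl. Over the 3 Rspo3 ranges Rpl39l stood at 46.2, 44.5 and 38.5 CPM, so within the library it did not go up with Rspo3. The genes most like Lgr4 were Ube4b and Zfp449 (each 0.996) and Pam (0.995), and those most like Znrf3 were Them4 (0.976), Tasor (0.975) and Pigk (0.964). These profiles come from 2 libraries and share depth and background RNA.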

How the data were processed

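The RSPO3-OE and the Ctrl library were compared, grouped by the genotype in the labels. Values deposited by the authors are raw counts of UMIs for each gene in each barcode. The submitters' processing notes name Cell Ranger 3.0.1 and the build mm10, and the header inside the matrices names version 3.1.0.

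A barcode was dropped if it had fewer than 200 genes or a mitochondrial share above 20% (150 barcodes of RSPO3-OE, 311 of Ctrl). Scrublet (scanpy 1.11.5, expected rate 5%) marked 171 (2.39%) and 95 (1.36%) of the rest as doublets, which were also left out. Python 3.11.15, numpy 2.4.6, scipy 1.17.1 and pandas 2.3.3 were used.

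UMIs were summed over a class and divided by its total. Intervals were exact Poisson for levels, Clopper-Pearson for shares and binomial for ratios, all at 95%. Those of levels and ratios treat UMIs as independent, so they are too narrow for genes whose UMIs are concentrated in some cells. A sum of 0 was set to a floor of 3 counts. A ratio in the main settings needed 10 UMIs in both groups together, and counts of genes use a 1.5-fold limit. The ratio and its interval were tested on simulated tumour cell sums with known folds, and the other steps were not. With 1 library per group no test could be made.

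The 9 genes, the lists and the class rules were chosen with earlier results of these data known. Named genes were the 9 genes, up to 2 per list with the highest and 2 with the lowest tumour cell ratio among those with at least 100 UMIs, and those most correlated with Rspo3, Lgr4 and Znrf3. Genes outside this rule are marker genes and Notum, Fzd3, Fzd4, Frzb, Sfrp2, Sdc4, Id1, Tnfsf11, Ndp, Wnt5a, Mgp, Crip1, Ly6c1 and S100a6. Apart from the marker genes, they were chosen after their values were seen. Alternatives changed the filters, the depth, the class rules and the scaling. The finer split by Rspo3 count and the ratios of its ranges to Ctrl were added after seeing the data.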

Additional observations from a re-analysis of the deposited data

Results flagged for a closer look

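Rspo3 was read in 2 sets of RSPO3-OE barcodes that the comparisons did not use, above the level in Ctrl. The 321 barcodes left out by the filters held 476 Rspo3 UMIs, or 81.3 CPM (74.1 to 88.9), against 0 UMIs in the 406 Ctrl barcodes left out. The 1169 kept cells in no class held 1685 Rspo3 UMIs, or 108.2 CPM (103.1 to 113.5), against 2 UMIs in 1200 Ctrl cells, or 0.125 CPM (0.0151 to 0.450). Of the 1685 UMIs, 1022 lay in 585 cells with no UMI of Ptprc, Hmga2 or the 4 Y-linked genes, at 115.8 CPM, which is close to the tumour class. Another 610 UMIs lay in 27 of 519 Ptprc-positive cells outside the classes, and all 27 carried Hmga2 as well. The remaining 53 UMIs lay in 4 of 28 Ptprc-negative cells with Y-linked RNA, 46 of them in 1 cell. The level over the 28 cells was 163.6 CPM (122.5 to 214). None of the 4 carried Hmga2, all 4 carried Col1a1 and Dcn, 3 carried Pdgfra and 1 carried Cdh5. Col1a1 and Dcn were also read in 41.0% and 98.8% of RSPO3-OE tumour cells. The 81 cells with neutrophil markers held 0 Rspo3 UMIs, at a median of 1624 UMIs per cell.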

How the results depend on the processing

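No ratio named in the text whose interval lay clear of 0 changed sign under the alternatives run, apart from the Id3 ratio by Rspo3 range, which turned from 0.718 to 1.11 times without Mgp-bearing cells. Ratios with intervals that include 0 did change sign: Lgr6 in tumour cells from -0.44 to 0.03 when thinned, Rnf43 in T cells from 0.51 to -0.52 by the mean of per-cell CPM, and Znrf3 in macrophages from 0.06 to just under 0 with doublets kept. With the stricter dividing rule in Ctrl, Lgr4 went from -0.03 to 0.09 and Rnf43 from -0.05 to 0.03. By Rspo3 range, Lgr4 went from -0.03 to as high as 0.20. That value used thinned Rspo3 counts to split the cells and full Lgr4 counts. With each cell thinned to 2000 UMIs, Rspo3 stood at 111.4 CPM, its share of cells at 9.06%, Rnf43 at a log2 ratio of -2.97 and the Wnt feedback median at 0.77 over 4 genes. Rspo3 stood at 102.3 CPM with at least 2 Hmga2 UMIs per tumour cell and at 109.2 CPM when CPM was taken per cell and averaged, and its share was 20.6% with tumour cells found without Hmga2, by Ptprc and Y-linked genes. The Rspo3 ratio of dividing over non-dividing cells was 0.11 with at least 5 UMIs of Mki67 and Top2a. The Lgr6 log2 ratio by Rspo3 range was 2.75 in non-dividing cells and 0.51 in dividing cells. The cause was not tested. The other 86 values for these results under an alternative moved by less than their counting interval. Over its alternatives the Lgr4 ratio ranged from 0.23 to 0.46, the Znrf3 ratio from -0.16 to -0.01 and the Axin2 log2 ratio by Rspo3 range from 1.59 to 1.89. The median-of-ratios shift of tumour cells was -0.095, so on that scaling each log2 ratio stood higher by this amount. The splits by dividing state, Mgp and second class within the Rspo3 ranges, and the removal of Hmga2-bearing immune cells, were chosen after seeing the data. No paired analysis was possible because each group has 1 library. Genotype and library cannot be told apart, and a count of 0 does not show that a gene is not expressed.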
